A study of Mus musculus with 6 samples.

Results

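The genes described here are 10 targets of the microRNA miR-155 that are known for it or named as such in the study: Jarid2, Inpp5d, Cebpb, Tspan14, Gpr65, Rcbtb2, Tcf7l2, Olfml3, Ptprj and Enpp1. They were taken as all probe sets whose only annotated gene symbol was 1 of these names, which gave 26 probe sets out of 45037 tested, for 10 of 20967 genes. Each symbol is current in the RefSeq gene table. A microRNA pairs through its seed, a short stretch near its 5′ end, with sites that lie mostly in the 3′ untranslated region of messenger RNAs, and lowers their stability and translation. In macrophages miR-155 is induced by Toll-like receptor ligands and interferons, and its best known target there is Inpp5d, the phosphatase SHIP-1. The study drew its list from observed and predicted targets, so some of the 10 may be candidates only. All macrophages measured here lacked miR-155, so the values show how these transcripts behaved under each stimulus in its absence.

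Bone marrow cells of miR-155 KO mice (B6.Cg-Mir155tm1.1Rsky/J, on the C57BL/6J background) were grown into macrophages in L929 cell supernatant, a source of macrophage colony stimulating factor, and replated without it on day 7. KO M2 macrophages then received IL-4 at 20 ng/ml, KO M1 macrophages LPS and IFN-γ at 100 and 20 ng/ml by the labels (another LPS concentration stands in the study's methods), and KO M0 macrophages medium alone, each for 24 hours. There were 2 mice and 6 Affymetrix mouse expression arrays, 2 arrays per condition, and array titles with the same KO number are taken as the same mouse. The sources used here give no age, 1 further KO sample was removed by the authors for RNA quality, and the WT arrays were not analysed here. All groups carry the same deletion, so no comparison below shows what the loss of miR-155 did.

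The values are RMA intensities, a linear scale on which array medians lay between 37.9 and 40.8. An intensity also depends on the probes, so levels were not compared between genes, and brightness served only to pick 1 probe set per gene and to set a value beside the median of its array. The conditions were compared on the log2 scale with limma, fitted over all 45037 probe sets, and a probe set passed at a Benjamini-Hochberg adjusted p under 0.05. Precision is limited by the number of arrays. The probe set annotated to Mir155 read 9.33 and 10.1 in KO M2, 10.5 and 9.42 in KO M1, with 10.8 and 9.94 in KO M0, below the median of its array in all 6 cases. Whether it lies inside the deletion is unknown here, and it is no check of the genotype. Of 14 genes of the IL-4 response, 13 passed as higher in KO M2, relative to KO M0, among them arginase Arg1 (adjusted p = 1.8e-07 in limma), which read 9348 and 7191 in KO M2, with 10.4 and 8.78 in KO M0, and Retnla and Mgl2. Of 15 genes of the LPS and IFN-γ response, 7 passed as higher in KO M1, among them the chemokine Cxcl9 (adjusted p = 1.7e-05 in limma), which read 4229 and 2728 in KO M1, with 37.6 and 38.1 in KO M0, and the cytokine Il1b. In that comparison 8 did not pass, among them Nos2, Tnf, Il6 and Il12b (adjusted p of 0.32, 0.47, 0.1 and 0.24 in limma). The KO M1 arrays stood far apart at some of these genes. Cxcl10, for example, read 9024 and 466.6 in KO M1, with 388.0 and 507.7 in KO M0. Arg1, Retnla, Mgl2 and Cxcl9 lay below the array median in KO M0, so no exact fold is given for them. The arrays hold RNA of whole cultures, in which fewer cells of a type and less RNA per cell cannot be told apart.

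The 2 mature strands of the deleted microRNA are shown with their seed, bases 2 to 8, in capitals, since the seed is what its targets are predicted from. They are read from RefSeq on GRCm38.p6, where the 5p strand lies at chr16:84714143-84714165 and the 3p strand at chr16:84714182-84714202, both on the plus strand.
mmu-miR-155-5p: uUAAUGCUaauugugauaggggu
mmu-miR-155-3p: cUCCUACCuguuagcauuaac
A transcript that pairs with the 5p seed holds its complement, AGCAUUA. Among 1738 mature mouse microRNAs in the RefSeq table, only 1, miR-155-5p itself, had the seed UAAUGCU. The 3′ untranslated regions of the 10 genes were not analysed here.

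In KO M2 macrophages 5 of the 26 probe sets passed against KO M0, 4 as higher and 1 as lower. The background was 3.61% higher and 3.57% lower among the 45037 probe sets. The higher ones were the 3 probe sets of Jarid2 and the single probe set of Gpr65, and the lower one was the dimmer probe set of Inpp5d. In KO M1 macrophages 11 passed against KO M0, 6 as higher (Jarid2, Cebpb and Olfml3) and 5 as lower (Enpp1 and Rcbtb2), against a background of 2.76% higher and 4.32% lower. With 16 added to the intensities the split in KO M1 was 9 higher and 2 lower. Over the whole array 1348 were then higher and 1861 lower, where 1241 and 1945 were without it. Between the stimuli, 4 probe sets were higher in KO M2 than in KO M1 (Enpp1 and Gpr65) and 5 were lower (Cebpb, Inpp5d and Olfml3), against 7.63% and 5.31% of all probe sets. The brightest probe set of each gene lay above the array median on all 6 arrays, and more probe sets pass in that range. Among the 20 probe sets of these genes at or above the median brightness 5, 10 and 8 passed in the 3 comparisons in the order above, against 12.3%, 12.4% and 22.3% of all such probe sets in either direction.

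Taking each gene by its brightest probe set, 2 genes rose and 0 fell in KO M2 relative to KO M0 in limma, against 4.5% and 3.06% of all genes. At an unadjusted p under 0.05, in either direction, 12 of the 26 probe sets passed in this comparison, 15 in KO M1 against KO M0 and 11 in KO M2 against KO M1, where 19.7%, 20.4% and 25.4% of all probe sets did. In KO M1, 3 genes were higher and 2 lower than in KO M0, against 3.79% and 4.49% of all genes. These shares of all genes are also the background for the counts in the gene lists below. The median log2 change of the 10 genes was 0.14 in KO M2 and 0.44 in KO M1, beside a median over all genes of -0.0 and 0.05. Over all probe sets it was -0.02 and 0.03. Both comparisons use the same KO M0 arrays. The authors listed 9 of the 10 genes, all but Cebpb, for a rise in KO M1 over WT M1, where a figure legend names KO M0 instead. The KO M1 arrays thus had a part in the choice, so the direction of the changes in KO M1 is not independent evidence. The KO M2 arrays had no part in that choice, but they are set here against the same KO M0 arrays. Differences between KO M2 and KO M1 use the KO M1 arrays too. For these 9 genes a value lower in KO M2 than in KO M1 is therefore not independent evidence either.

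**Figure D1:**
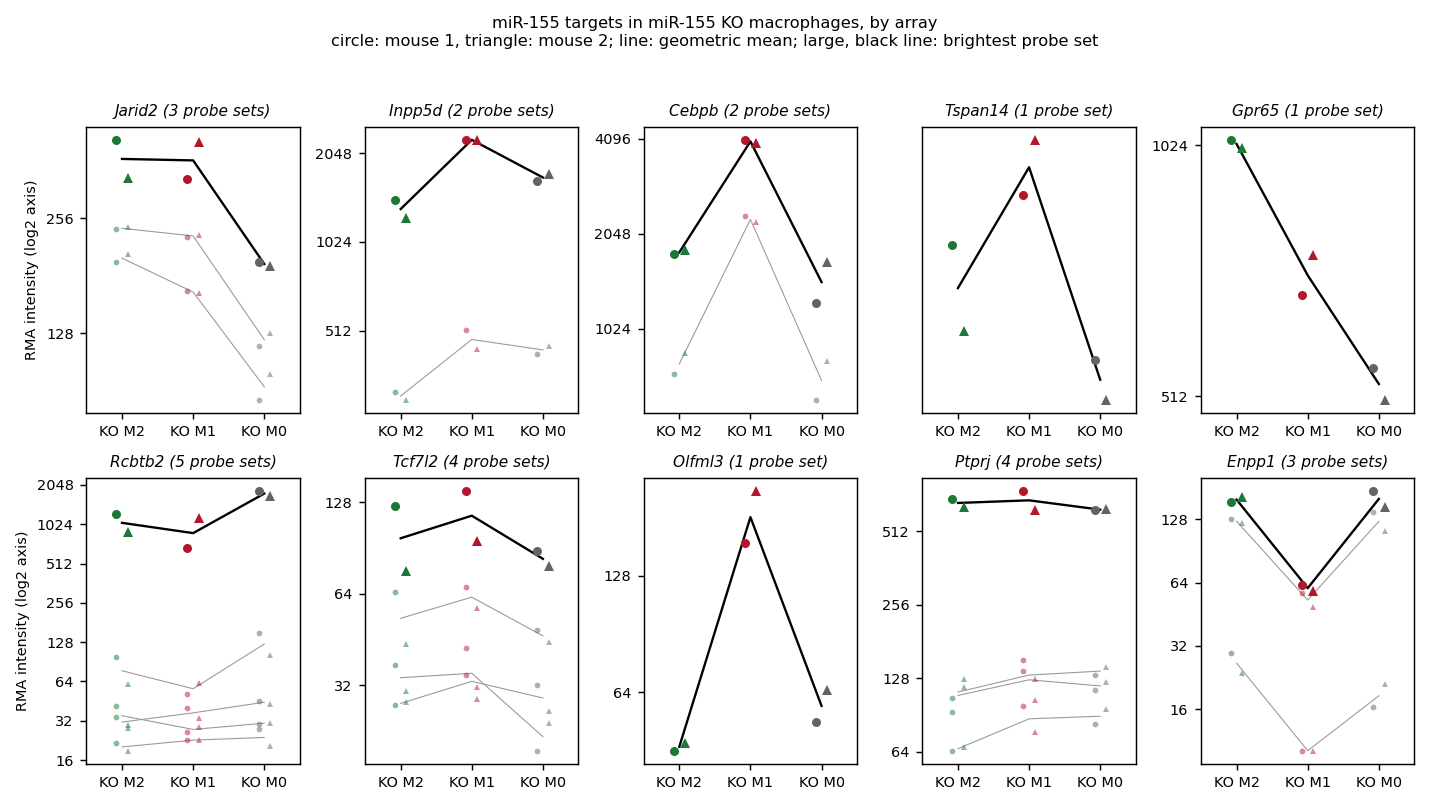
RMA intensity (vertical log2 axis, a scale per gene) of every probe set of the 10 genes on each array of KO M2, KO M1 and KO M0 macrophages, with circles for mouse 1, triangles for mouse 2, lines through the geometric means, and the brightest probe set drawn large with a black line. Jarid2 and Gpr65 lie lowest in KO M0, Cebpb and Olfml3 peak in KO M1, Enpp1 is lowest in KO M1, and Inpp5d is lowest in KO M2.

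Jarid2, an accessory subunit of the Polycomb repressive complex PRC2 that helps bring it to chromatin, rose under both stimuli. Its probe set 1422698_s_at read 410.5 and 325.8 in KO M2, 324.8 and 404.5 in KO M1, with 196.3 and 192.3 in KO M0. Probe set 1422697_s_at read 239.4 and 242.3 in KO M2, 228.8 and 231.3 in KO M1, with 118.4 and 128.2 in KO M0. Probe set 1450710_at read 196.6 and 206.1 in KO M2, 165.2 and 163.0 in KO M1, with 85.9 and 100.3 in KO M0. At each of the 3 probe sets all stimulated arrays lay above both KO M0 arrays. The log2 changes in KO M2 were 0.91 (SE 0.16, adjusted p = 0.011), 0.97 (SE 0.12, adjusted p = 0.0019) and 1.12 (SE 0.13, adjusted p = 0.0014) in limma. Those in KO M1 were 0.90 (SE 0.16, adjusted p = 0.012), 0.90 (SE 0.12, adjusted p = 0.0027) and 0.82 (SE 0.13, adjusted p = 0.0063). The calls of 1422697_s_at held with any array left out. That of 1450710_at held in KO M2, and in KO M1 it was lost without the KO M0 array of mouse 1 (adjusted p = 0.08). The call of 1422698_s_at was lost without either KO M0 array (adjusted p of 0.093 and 0.094 in KO M2 and of 0.098 and 0.097 in KO M1) and, in KO M2, without its array of mouse 1 (0.088). KO M2 and KO M1 did not differ past the test at any of the 3 probe sets, with differences of 0.01 (95% interval -0.35 to 0.38), 0.07 (-0.20 to 0.34) and 0.29 (0.00 to 0.59).

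The other components of PRC2 did not pass in KO M2, where 0 of 10 genes did in limma, 1 at an unadjusted p under 0.05, with a median log2 change of 0.04. In KO M1, where the median was -0.13, 1 passed as higher, the core subunit Eed (log2 change 0.63, adjusted p = 0.033), and 2 as lower, the methyltransferase Ezh2 (-0.86, adjusted p = 0.01) and the histone-binding subunit Rbbp7 (-0.66, adjusted p = 0.026). Ezh2 read 196.6 and 248.4 in KO M2, 128.8 and 134.0 in KO M1, with 224.4 and 253.0 in KO M0. None of these 3 calls held in all fits with an array left out, each was lost without either KO M0 array, and those of Eed and Rbbp7 were also lost under a mouse block (0.064 and 0.053).

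Cebpb, a basic leucine zipper transcription factor of inflammatory and myeloid genes, rose in KO M1. Its probe set 1418901_at read 1762 and 1817 in KO M2, 4069 and 3970 in KO M1, with 1241 and 1673 in KO M0. Probe set 1427844_a_at read 734.7 and 856.4 in KO M2, 2327 and 2225 in KO M1, with 611.1 and 808.4 in KO M0. The KO M1 arrays stood far above the rest at both probe sets, while the KO M2 and KO M0 arrays lay close together and overlapped at the second. The log2 changes in KO M1 were 1.48 (SE 0.16, adjusted p = 0.00092) and 1.69 (SE 0.16, adjusted p = 0.00056) in limma, and held with any array left out. In KO M2 the changes were 0.31 (95% interval -0.04 to 0.67, adjusted p = 0.33) and 0.17 (-0.19 to 0.54, adjusted p = 0.64). KO M2 was lower than KO M1, with differences of -1.17 and -1.52 on the log2 scale (adjusted p of 0.0015 and 0.00041 in limma), which also held with any array left out.

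Of 5 other measured genes of the C/EBP family, 2 passed as higher in KO M2, the stress-induced factor Cebpd (log2 change 1.42, adjusted p = 0.014) and Cebpg (0.51, adjusted p = 0.043), and Cebpd also passed in KO M1 (1.27, adjusted p = 0.023). The median log2 change of the family was 0.46 in KO M2 and -0.09 in KO M1. Cebpd read 1090 and 951.3 in KO M2, 1172 and 715.2 in KO M1, with 305.9 and 472.7 in KO M0. Its stimulated arrays all lay above KO M0, but the call in KO M2 was lost without the KO M0 array of mouse 1 or either KO M2 array (up to 0.13), and that in KO M1 without the KO M0 or the KO M1 array of mouse 1 (up to 0.18). The call of Cebpg was lost in 4 of 6 such fits and with the mouse as a block (adjusted p = 0.077).

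Tcf7l2, a transcription factor through which β-catenin acts in Wnt signalling, passed at 0 of its 4 probe sets in KO M2, KO M1 or the comparison of the stimuli, and only 1429427_s_at reached an unadjusted p under 0.05 in any of them. Its brightest probe set read 124.5 and 76.2 in KO M2, 139.5 and 95.7 in KO M1, with 88.1 and 78.9 in KO M0. The array of mouse 1 read higher than that of mouse 2 in every condition, and KO M2 overlapped both other conditions. Probe set 1429427_s_at, below the median on 5 of 6 arrays, read 37.4 and 30.7 in KO M2, 42.5 and 28.9 in KO M1, with 19.5 and 24.1 in KO M0. Its log2 change was 0.64 in KO M2 (adjusted p = 0.11) and 0.69 in KO M1 (adjusted p = 0.087). It passed in KO M2 without either KO M1 array (adjusted p = 0.035) and in KO M1 without the KO M1 array of mouse 2 (0.017). Of 11 genes of the TCF/LEF and β-catenin list, 1, the chromatin reader Pygo2, passed as higher in KO M2 (0.61, adjusted p = 0.026) and in KO M1 (0.55, adjusted p = 0.036). Its adjusted p was 0.054 and 0.07 in the fit with mouse as a block, its calls were lost in 4 and 6 of the 6 fits with an array left out, and the median log2 change of the list was 0.02 and 0.11.

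Inpp5d encodes SHIP-1, which removes the 5-phosphate from the lipid made by PI3K and so limits Akt signalling. It was lower in KO M2 than in KO M1 at both probe sets, and the KO M0 arrays lay between them at the brighter one. Probe set 1418110_a_at read 1426 and 1231 in KO M2, 2278 and 2275 in KO M1, with 1653 and 1738 in KO M0. Probe set 1424195_a_at read 316.2 and 298.3 in KO M2, 515.7 and 442.6 in KO M1, with 428.1 and 452.9 in KO M0. The KO M2 arrays were the lowest at both, and KO M1 and KO M0 overlapped at the dimmer one. The difference between KO M2 and KO M1 was -0.78 (SE 0.13, adjusted p = 0.0043) at the brighter and -0.64 (SE 0.13, adjusted p = 0.013) at the dimmer probe set in limma. At the brighter one it held with any array left out. At the dimmer one it was lost without the KO M1 array of mouse 1 (0.058) or without a KO M2 array (0.051 and 0.09 without mouse 1 and mouse 2).

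Against KO M0, KO M2 was lower, with a log2 change of -0.52 (SE 0.13, adjusted p = 0.049) at the dimmer probe set, and the brighter one had -0.36 (SE 0.13, adjusted p = 0.16). The call of the dimmer probe set lay at the threshold. It was lost with the mouse as a block (0.084), under median centring (0.089), without either KO M0 array (0.21 and 0.25) and without either KO M2 array (0.15 and 0.2). In KO M1 the log2 changes were 0.43 (95% interval 0.14 to 0.71, adjusted p = 0.09) and 0.12 (-0.18 to 0.41, adjusted p = 0.68).

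The promoter of Inpp5d is shown because, among those of the 10 genes, it alone held a match to the motif of STAT6, through which IL-4 acts. It is the RefSeq sequence on GRCm38.p6 at chr1:87620062-87620361, plus strand, from 250 bases before to 50 after the start of the gene (RefSeq table), and the capitals mark a match to the motif that STAT6 binds, TTC and GAA with 4 bases of any kind between them.
Inpp5d promoter: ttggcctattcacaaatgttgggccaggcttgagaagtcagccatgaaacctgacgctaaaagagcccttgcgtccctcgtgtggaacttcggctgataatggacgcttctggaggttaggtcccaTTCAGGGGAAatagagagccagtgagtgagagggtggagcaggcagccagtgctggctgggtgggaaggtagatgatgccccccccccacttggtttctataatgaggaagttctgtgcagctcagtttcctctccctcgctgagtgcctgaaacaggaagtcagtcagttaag
The match is a description of these letters, not a binding site. Olfml3, Enpp1 and Cebpb differed more between the stimuli than Inpp5d, and their promoters held no such match. Of 32851 promoters of this length 6.95% held one, and of the 15 promoters of the 10 genes 1 did. The other motifs searched, on both strands, were TGANTCA of AP-1 (7.81% of all promoters, no gene), TGACGTCA of CREB (1.79%, no gene), TTGCNNAA of C/EBP factors (10.8%, Enpp1, Rcbtb2 and Tspan14) and CCGGAAGT of ETS factors (3.89%, no gene).

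Among 30 genes of the PI3K-Akt pathway, 1 passed as higher and 2 as lower in KO M2, against 4.5% and 3.06% of all genes. The median log2 change was 0.10 (0.24 in KO M1). The higher one was Dok2, an adaptor that dampens kinase signalling (0.96, adjusted p = 0.0029), which read 2771 and 2910 in KO M2, 845.1 and 910.4 in KO M1, with 1562 and 1366 in KO M0. The lower ones were the PI3K adaptor Pik3ap1, also called BCAP (-1.49, adjusted p = 0.0026), and the catalytic subunit Pik3cg (-0.63, adjusted p = 0.016). Pik3ap1 read 607.8 and 547.2 in KO M2, 2939 and 1920 in KO M1, with 1557 and 1686 in KO M0. The calls of Dok2 and Pik3ap1 in KO M2 held with any array left out, and that of Pik3cg was lost without any 1 of the 4 arrays of the comparison. In KO M1, 3 passed as higher, the phosphatase Inpp4b (1.37, adjusted p = 0.0033) and the catalytic subunits Pik3cd (0.89, adjusted p = 0.011) and Pik3cg (0.55, adjusted p = 0.029), and Dok2 passed as lower (-0.74, adjusted p = 0.011). Of these only Inpp4b held with any array left out, and Pik3cg stood at 0.053 under a mouse block.

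Ptprj is the receptor tyrosine phosphatase CD148, known to act on Src family kinases in macrophages. It passed at 0 of its 4 probe sets in any comparison, and 1427629_at alone had an unadjusted p under 0.05, in both comparisons of KO M2. Its brightest probe set read 692.7 and 645.4 in KO M2, 749.9 and 626.4 in KO M1, with 622.8 and 633.0 in KO M0. The 6 values lay close together, and the 95% interval of the log2 change was -0.21 to 0.39 in KO M2 and -0.18 to 0.43 in KO M1. Probe set 1427629_at read 64.7 and 67.3 in KO M2, 98.9 and 77.3 in KO M1, with 83.4 and 96.3 in KO M0, a log2 change of -0.44 in KO M2 (adjusted p = 0.14). It differed between the stimuli without the KO M1 array of mouse 2 (-0.58, adjusted p = 0.045), but not with all arrays (-0.41, adjusted p = 0.13). The log2 changes of its probe sets ranged between -0.44 and 0.09 in KO M2.

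Of 9 other receptor tyrosine phosphatases, 2 passed as higher in KO M2, Ptpre (log2 change 1.54, adjusted p = 0.00031) and Ptprs (0.71, adjusted p = 0.031). Ptpre read 2684 and 2586 in KO M2, 752.4 and 888.9 in KO M1, with 935.1 and 875.9 in KO M0. Its call in KO M2 held with any array left out, and that of Ptprs was lost without either KO M0 array or the KO M2 array of mouse 1. In KO M1, 3 passed as lower, Ptpra (-0.86, adjusted p = 0.0044), Ptpro (-0.81, adjusted p = 0.016) and Ptprs (-0.76, adjusted p = 0.024), and each of the 3 was lost in at least 1 of 6 such fits. The median log2 change of these phosphatases was -0.02 in KO M2 and -0.08 in KO M1.

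Gpr65, a G protein-coupled receptor that senses extracellular protons and raises cyclic AMP, was highest in KO M2. Its probe set read 1040 and 1016 in KO M2, 676.6 and 755.5 in KO M1, with 553.1 and 507.1 in KO M0. The 3 conditions did not overlap. The log2 change was 0.96 in KO M2 (SE 0.12, adjusted p = 0.0027 in limma) and held with any array left out, with 0.038 the highest adjusted p. In KO M1 it was 0.43 (95% interval 0.15 to 0.72, adjusted p = 0.082). KO M2 exceeded KO M1 by 0.52 (SE 0.12, adjusted p = 0.027). That call was lost with the mouse as a block (0.053), after quantile normalization (0.051), in a fit of both conditions alone (0.054) and in 5 of 6 fits with an array left out, where the adjusted p lay at 0.031 without the KO M1 array of mouse 2 and reached 0.11 without a KO M2 array.

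Of 2 other proton-sensing receptors analysed here 1 passed as higher in KO M2, with a median log2 change of 0.26 over both (0.07 in KO M1). Gpr132, a receptor activated by oxidised fatty acids, rose by 0.58 in KO M2 (adjusted p = 0.026), was lost in 4 of 6 fits with an array left out, and stood at 0.052 in the fit with mouse as a block. Gpr4 had -0.06 (adjusted p = 0.85).

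Tspan14 belongs to the tetraspanins that carry the protease ADAM10 to the cell surface. It read 1324 and 1172 in KO M2, 1424 and 1541 in KO M1, with 1125 and 1062 in KO M0, with no overlap between conditions. The log2 change was 0.19 in KO M2 (95% interval -0.10 to 0.48, adjusted p = 0.49) and 0.44 in KO M1 (0.15 to 0.73, adjusted p = 0.082), so neither passed. In KO M1 it passed at 0.045 when 16 was added to the intensities before taking the log2, as did Gpr65 at 0.041 and the brighter probe set of Inpp5d at 0.047. Among 19 measured genes of the tetraspanin, ADAM10 and Notch list, 4 passed as higher and 1 as lower in KO M2, with a median log2 change of 0.05 (0.06 in KO M1). They include Tspan5, another partner of ADAM10 (1.72, adjusted p = 0.00096), which read 539.8 and 457.5 in KO M2, 104.9 and 148.1 in KO M1, with 161.4 and 140.9 in KO M0. The calls of Tspan5 and Cd151 (0.97, adjusted p = 0.0024) held with any array left out, and those of Cd81, Tspan32 and, as lower, Notch2 (0.053 under a mouse block) did not. In KO M1, 2 passed as higher, Notch1, a receptor cut by ADAM10, at 1.42 (adjusted p = 0.00048) and Tspan3 at 1.3 (adjusted p = 0.0037), and 2 as lower, Cd9 at -2.74 (adjusted p = 0.0013) and Tspan4 at -1.01 (adjusted p = 0.0053). Notch1 and Cd9 held with any array left out. Tspan3 was lost without the KO M0 array of mouse 1 (0.054), and Tspan4 without either KO M0 array (up to 0.059).

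Enpp1, a membrane enzyme that makes pyrophosphate from ATP and also cleaves cyclic dinucleotides, fell in KO M1 and not past the test in KO M2. Its probe set 1459546_s_at read 153.9 and 163.7 in KO M2, 62.1 and 58.5 in KO M1, with 174.8 and 146.2 in KO M0. Probe set 1419276_at read 127.7 and 122.8 in KO M2, 57.0 and 49.0 in KO M1, with 138.5 and 112.9 in KO M0. Both KO M1 arrays lay far below the others, among which KO M2 and KO M0 overlapped. The third, 1440339_at, below the median on every array, read 29.6 and 23.8 in KO M2, 10.2 and 10.2 in KO M1, with 16.4 and 21.0 in KO M0. The log2 changes in KO M1 were -1.41 (SE 0.13, adjusted p = 0.00057), -1.24 (SE 0.15, adjusted p = 0.0015) and -0.87 (SE 0.16, adjusted p = 0.016) in limma. The first 2 calls held with any array left out, and the last was lost without the KO M0 array of mouse 2 (0.14) and at an offset of 16 (0.078). In KO M2 they were -0.01 (95% interval -0.32 to 0.30), 0.00 (-0.33 to 0.33) and 0.52 (0.14 to 0.89, adjusted p = 0.11). KO M2 exceeded KO M1 by 1.40, 1.24 and 1.38 (adjusted p of 0.00024, 0.00073 and 0.00076).

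Enpp1 alone among the 10 genes passed as lower in KO M1 with all of its probe sets, against KO M0 in limma. Its promoter is shown with its match to the C/EBP motif TTGCNNAA in capitals, which lies on the other strand. The sequence is from RefSeq on GRCm38.p6 at chr10:24712110-24712409, minus strand.
Enpp1 promoter: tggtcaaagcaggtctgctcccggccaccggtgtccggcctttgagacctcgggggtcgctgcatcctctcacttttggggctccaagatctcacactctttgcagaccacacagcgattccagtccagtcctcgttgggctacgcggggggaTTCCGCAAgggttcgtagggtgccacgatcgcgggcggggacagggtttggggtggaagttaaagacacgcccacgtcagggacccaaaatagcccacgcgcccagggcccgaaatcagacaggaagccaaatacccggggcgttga

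Among 11 genes of the ENPP family and of phosphate handling, 1 passed as higher in KO M2 and 2 as lower in KO M1, with a median log2 change of 0.00 and 0.01. Ank, the transporter that exports ATP and pyrophosphate, read 1046 and 1064 in KO M2, 263.5 and 287.8 in KO M1, with 638.6 and 541.8 in KO M0. It rose in KO M2 by a log2 change of 0.84 (adjusted p = 0.0067, lost without the KO M0 array of mouse 2 at 0.075) and fell in KO M1 by 1.09 (adjusted p = 0.0018, held with any array left out). Entpd1, the surface ATP hydrolase CD39, had -0.92 in KO M1 (adjusted p = 0.031), which was lost in 3 of 6 fits with an array left out.

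Olfml3, a secreted olfactomedin domain glycoprotein known as a microglial marker, read 45.1 and 47.3 in KO M2, 155.3 and 212.7 in KO M1, with 53.5 and 64.8 in KO M0. Only the KO M1 arrays stood high, and the KO M2 arrays were the lowest. The log2 change was 1.63 in KO M1 (SE 0.17, adjusted p = 0.00097 in limma) and -0.35 in KO M2 (95% interval -0.75 to 0.04, adjusted p = 0.32). KO M2 was lower than KO M1, with a difference of -1.98 (SE 0.17, adjusted p = 0.00015), the largest difference among the 26 probe sets in the 3 comparisons. These 2 calls held with any array left out. Of 7 other olfactomedin genes 4 were below the median on every array (median log2 change 0.04 in KO M2 and 0.11 in KO M1), and 1 passed, Olfm1, which rose in KO M2 by 3.30 (adjusted p = 3.9e-05) with any array left out as well. Olfm1 read 2043 and 1973 in KO M2, 118.8 and 181.5 in KO M1, with 194.4 and 213.1 in KO M0, so that these 2 genes of the family were each high under a different stimulus.

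Rcbtb2, a protein with RCC1 and BTB domains, fell in KO M1 at its 2 brightest probe sets. Probe set 1416389_a_at read 1233 and 891.9 in KO M2, 669.6 and 1144 in KO M1, with 1845 and 1673 in KO M0. Probe set 1416390_at read 98.5 and 60.7 in KO M2, 51.3 and 61.9 in KO M1, with 150.4 and 102.0 in KO M0. All stimulated arrays lay below both KO M0 arrays at these probe sets, and KO M2 overlapped KO M1. In KO M1 the log2 changes were -1.01 (SE 0.25, adjusted p = 0.048) and -1.14 (SE 0.25, adjusted p = 0.032) in limma, with -1.46 in mouse 1 and -0.55 in mouse 2 for the first. The call of 1416389_a_at was lost with the mouse as a block (0.086) and in 5 of 6 fits with an array left out, and stood at 0.004 without the KO M1 array of mouse 2. It was also lost with trend and robust moderation (0.059), after quantile normalization (0.062), in a fit of both conditions alone (0.059) and at an offset of 16 (0.1). The call of 1416390_at was lost at that offset (0.083) and in 3 of the fits with an array left out, without either KO M0 array (0.23 and 0.056) and without the KO M1 array of mouse 1 (0.11).

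In KO M2 the log2 changes of Rcbtb2 were -0.74 (SE 0.25, adjusted p = 0.13) and -0.68 (SE 0.25, adjusted p = 0.18). That of 1416389_a_at passed without either KO M1 array, or without both (0.027 each). The 3 dimmer probe sets, above the median on 3, 1 and 0 of 6 arrays, passed in no comparison and ranged between -0.50 and 0.19 in KO M2. Of 5 genes of related domain structure 1, the chromatin protein Rcc2, passed as higher in KO M2 (0.65, adjusted p = 0.024). It was lost in 4 of 6 fits with an array left out, and the median log2 change of the 5 was 0.18 in KO M2 and -0.09 in KO M1.

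**Figure D2:**
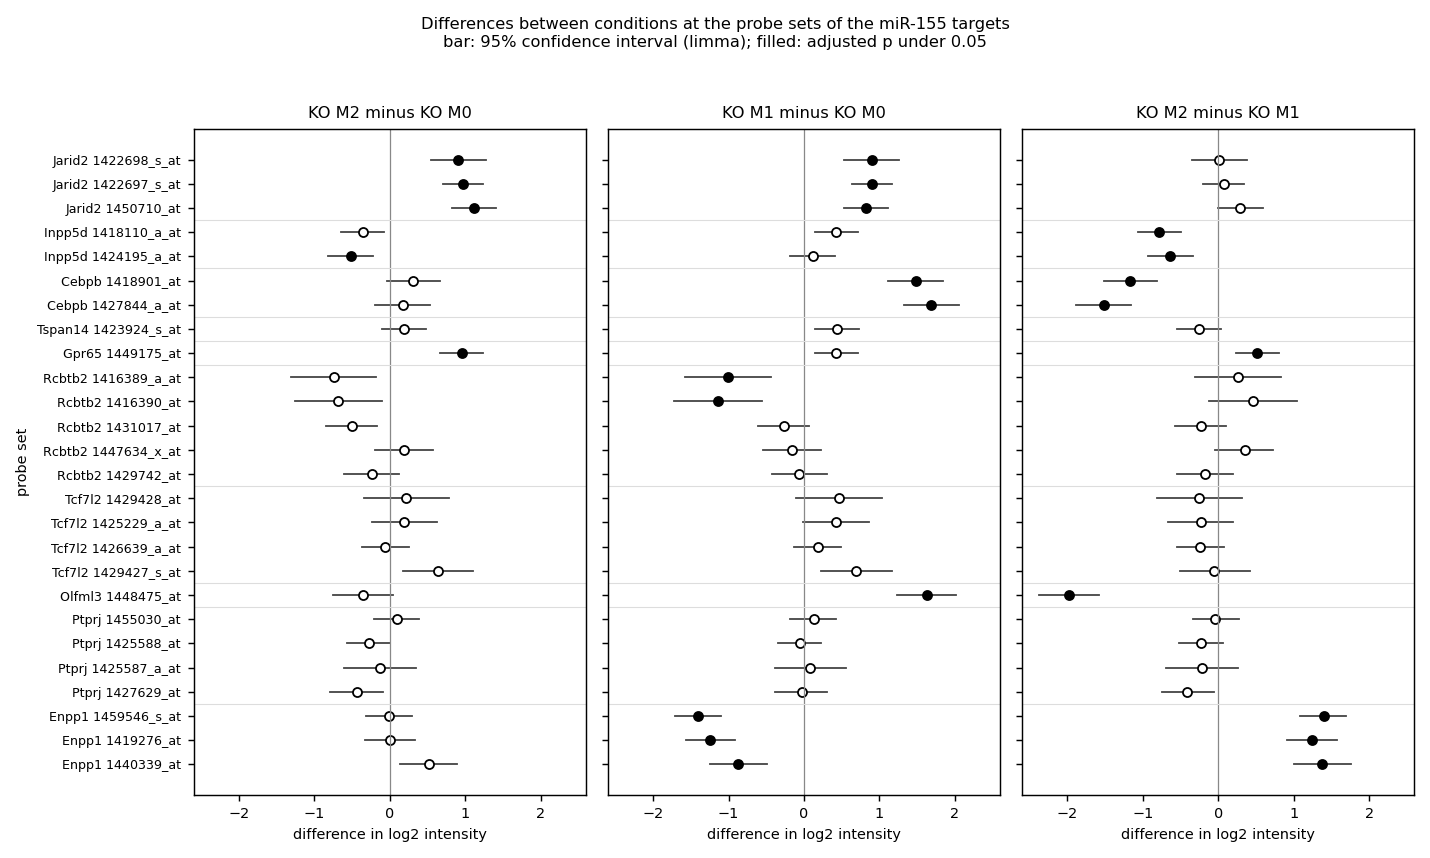
Difference in log2 intensity (horizontal axis) at each of the 26 probe sets (rows) for KO M2 minus KO M0, KO M1 minus KO M0 and KO M2 minus KO M1, with 95% confidence intervals as bars and filled points at an adjusted p under 0.05 in limma. The filled points number 5, 11 and 9, the Jarid2 points lie right of 0 in the first panels and near 0 in the last, and Olfml3 has the point farthest from 0, at -1.98.

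Other miR-155 targets were counted in the same way. Over all genes 4.5% passed as higher and 3.06% as lower in KO M2, and 3.79% and 4.49% in KO M1. Of 8 further candidate targets of the study that were analysed here, 0 passed as higher and 3 as lower in KO M2 in limma, where 0 and 4 had an unadjusted p under 0.05, and 1 passed each way in KO M1. Their median log2 change was -0.32 in KO M2 and 0.09 in KO M1. The authors chose these, too, with the KO M1 arrays, so their counts are not independent evidence of a direction. Maf, a basic leucine zipper transcription factor, read 1159 and 689.3 in KO M2, 2210 and 1667 in KO M1, with 2355 and 2512 in KO M0 (log2 change in KO M2 -1.44, adjusted p = 0.0085). That call was lost without either KO M0 array (highest adjusted p 0.079). Ikbke, a kinase of interferon induction, read 409.6 and 413.2 in KO M2, 2219 and 1749 in KO M1, with 1100 and 1194 in KO M0. It fell in KO M2 by 1.48 (adjusted p = 0.00065, held with any array left out) and rose in KO M1 by 0.78 (adjusted p = 0.014, lost in 3 of 6 fits). The interleukin-6 receptor Il6ra had -0.84 in KO M2 (adjusted p = 0.035, 0.059 under a mouse block, lost in 3 of 6 fits), and Glul, glutamine synthetase, -0.84 in KO M1 (adjusted p = 0.019, lost in 3 of 6 fits).

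Of 22 other targets known from the literature that were analysed here, 2 passed as higher and 3 as lower in KO M2, against 4.5% and 3.06% of all genes. In KO M1, 1 passed as higher and 0 as lower, against 3.79% and 4.49%. The median log2 change was 0.05 in KO M2 and 0.11 in KO M1. Socs1, an inhibitor of cytokine receptor kinases that cytokines themselves induce, read 762.8 and 656.4 in KO M2, 261.3 and 86.2 in KO M1, with 50.6 and 50.3 in KO M0. It rose in KO M2 by 3.81 (adjusted p = 0.001), which held with any array left out, and in KO M1 had 1.57 (adjusted p = 0.057). Next in size were Picalm, an adaptor of clathrin-coated pits, as higher (0.91, adjusted p = 0.009), and the AP-1 subunit Fos (-1.0, adjusted p = 0.021), the IL-13 receptor chain Il13ra1 (-0.91, adjusted p = 0.013) and the unconventional myosin Myo10 (-0.77, adjusted p = 0.0061) as lower. The first 3 were each lost in at least 3 of 6 fits with an array left out, and Myo10 without either KO M0 array (up to 0.064). In KO M1 the call was Hif1a, the oxygen-regulated transcription factor (0.91, adjusted p = 0.014), which was lost without either KO M0 array (up to 0.12).

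**Figure D3:**
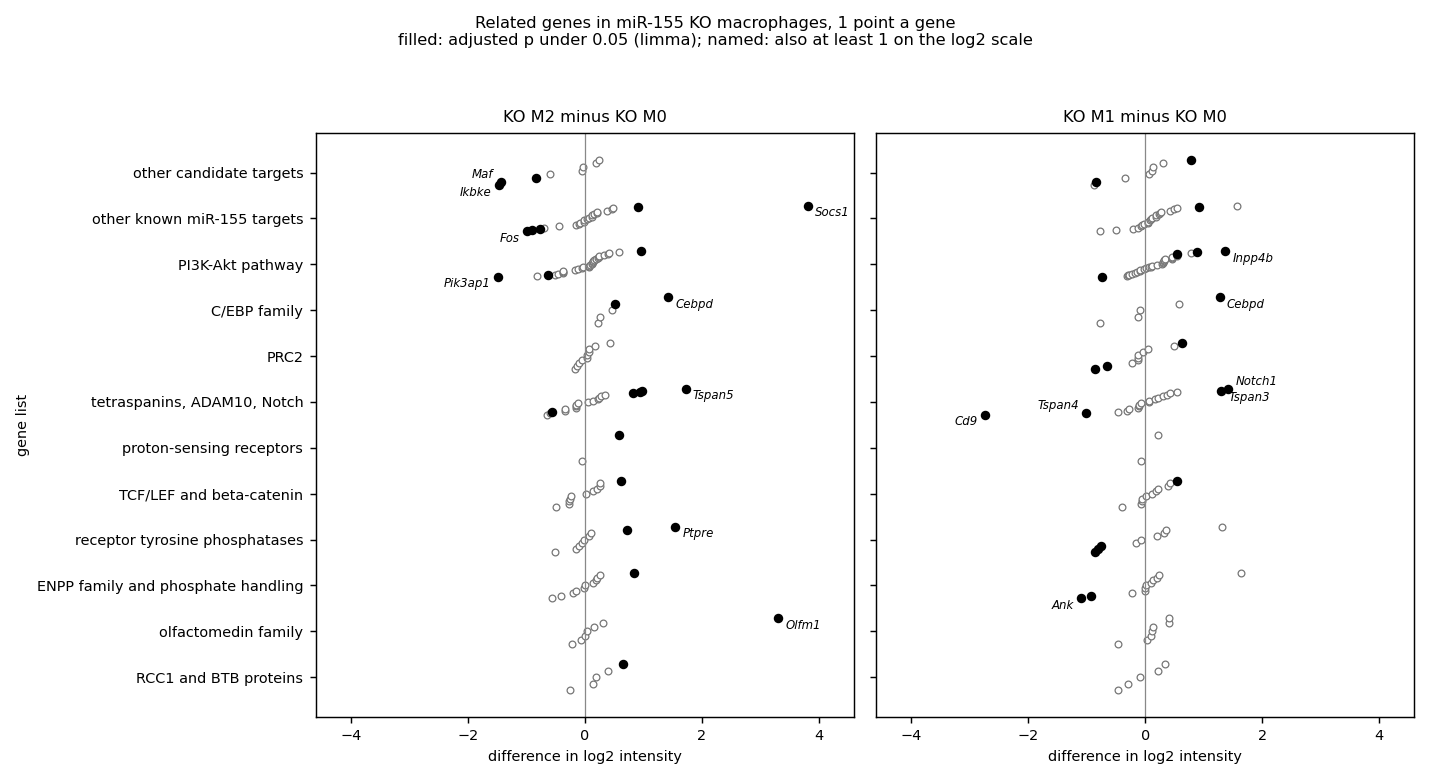
Difference in log2 intensity (horizontal axis) of each analysed gene of 12 lists related to the 10 targets (rows), for KO M2 minus KO M0 on the left and KO M1 minus KO M0 on the right, with filled points at an adjusted p under 0.05 in limma and names for those that also changed by at least 1. Socs1 (3.81) and Olfm1 (3.30) lie farthest right in KO M2, and Cd9 (-2.74) farthest left in KO M1.

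The genes whose pattern over the 6 arrays was nearest to those of Jarid2 and Gpr65, the 2 genes whose brightest probe set passed in KO M2, were sought among 20966 genes by the root mean square difference of log2 values centred on KO M0. For Jarid2 they were Lemd2 (0.122), which read 1198 and 1089 in KO M2, 1007 and 1028 in KO M1, with 564.9 and 559.0 in KO M0, and 9330133O14Rik (0.136). For Gpr65 they were Rhot2 (0.038), which read 265.1 and 248.1 in KO M2, 179.4 and 194.3 in KO M1, with 138.5 and 131.5 in KO M0, and Pcid2 (0.064). These are descriptions over 6 arrays.

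Some measures of the samples moved with the conditions. For the Gapdh control probe sets, 3′ over 5′ signal lay on the log2 scale at 0.20 and 0.11 in KO M2, 0.09 and 0.15 in KO M1, with -0.08 and -0.07 in KO M0, and that of Actb at 0.32 and 0.23, 0.19 and 0.19, and 0.15 and 0.16 in the same order. Within a pair of mice 120, 433 and 49 probe sets were over 2-fold apart in KO M2, KO M1 and KO M0. Of 8 macrophage markers none was below the median on every array, and 4 passed as lower in KO M2 (Fcgr1, Cd14, Emr1 and Mertk). The calls of Fcgr1 and Cd14 held with any array left out, and those of Emr1 and Mertk did not. In KO M1, 1 passed as higher (Itgam, 0.86, adjusted p = 0.0076), which was lost without the KO M0 array of mouse 1. The summed intensity of the 8 was 57279 to 60092 in KO M2, 82194 to 84018 in KO M1 and 76665 to 77926 in KO M0. Of 8 dendritic cell markers 3 passed as higher in KO M2 (Itgax, Batf3 and Zbtb46), 5 did not pass there, and 1 was below the median on every array. Their summed intensity was 9709 to 9996 in KO M2, 577.0 to 789.4 in KO M1 and 1492 to 1951 in KO M0. In KO M2 and KO M0 most of that sum came from Itgax alone. It read 8854 and 8405 in KO M2, 177.6 and 393.9 in KO M1, with 1524 and 1092 in KO M0. Zbtb46 was lost in 4 of 6 fits with an array left out and under a mouse block (0.069). In KO M1, Itgax, which macrophages also express, passed as lower (-2.29, adjusted p = 0.0039, lost without the KO M0 array of mouse 1 at 0.054) and Ccr7 as higher (0.59, adjusted p = 0.047, lost in 5 of 6 fits and at 0.063 under the block). Against KO M0, markers of B cells and erythroid cells did not pass, those of neutrophils, fibroblasts, and mast cells and basophils passed at 1 gene each, as higher in KO M1, and those of T and NK cells at 1, Cd4, as lower in KO M2. None of these calls held in all fits with an array left out. The part of these measures in the results above was not tested.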

How the data were processed

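RNA from KO M2, KO M1 and KO M0 macrophages of miR-155 KO mice was hybridised to Affymetrix arrays. The deposited values are linear intensities that the authors obtained by RMA (background correction, quantile normalization and summary per probe set) in GenePattern, version not given in the sources used here. A second deposited table of the same arrays was an alternative. Columns with the authors' own fold changes, p-values and class means were not used.

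Tests left out 64 controls among the 45101 probe sets. Log2 intensities of all 6 arrays were fitted in limma 3.58.1 (R 4.3.3) with the 3 conditions as groups, with 3 residual and 5.49 prior degrees of freedom. Tests were two-sided, and p-values were Benjamini-Hochberg adjusted over 45037 probe sets. No fold threshold was set. The fit was also run on simulated data with independent normal errors and no mouse effect, which does not test its assumptions on these arrays. A gene in a list was represented by its brightest probe set with a single symbol, 38544 probe sets having 1 symbol, 859 several and 5634 none. All probe sets of the 10 genes were described, those without a call partly by their range, and of each list the 2 to 4 genes with the largest change among those that passed were named, up to all where 5 or fewer passed. Figures and tables were made in Python 3.11.15.

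The mouse numbers come from the array titles. Checked on the data, arrays that share a number deviated from their conditions' means with a correlation of 0.209 for KO M2 with KO M0, -0.162 for KO M1 with KO M0 and -0.215 for KO M2 with KO M1. With 2 mice the p-values measure the spread between these arrays only. The labels and the study's methods give different LPS concentrations. The genes, lists and tests were chosen with earlier results of these data known. Some genes of these lists and a promoter motif are not reported here and are left out of the counts, medians and figures.

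Alternatives were a mouse block, fits of only 2 conditions, another variance moderation, an offset of 16, median centring, quantile normalization, leaving out dim probe sets, the methods' t-test, and leaving out each array.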

Additional observations from a re-analysis of the deposited data

How the results depend on the processing

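None of the alternatives run turned the direction of a call among the 26 probe sets. With the mouse as a replicate block, 4 probe sets passed in KO M2 against KO M0, 10 in KO M1 against KO M0 and 8 in KO M2 against KO M1, where 5, 11 and 9 passed without it. Among the 26 the block changed no other call than those of Inpp5d, Rcbtb2 and Gpr65 given with these genes. Over the whole array 2457, 2557 and 4953 probe sets passed with the block. A crossed pairing, with the KO M1 mouse numbers exchanged and chosen after seeing the data, gave 7, 11 and 9 of the 26 and 4323, 4284 and 7022 over the whole array.

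With each array left out in turn, 3 to 7, 7 to 12 and 7 to 10 of the 26 passed in the same order. Over the whole array 997 to 4365, 1017 to 3500 and 3123 to 5594 probe sets then passed, against 3234, 3186 and 5829 with all arrays. The methods' t-test on linear intensities called 0 of 26 and 0 of all probe sets in each comparison after Benjamini-Hochberg adjustment, and unadjusted it called 4, 8 and 11 of the 26 and 6448, 5819 and 6537 of all.

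Variance moderation, normalization, the offset, fits of only 2 conditions, the other table and leaving out dim probe sets gave 4 to 7, 10 to 11 and 8 to 9. Over all probe sets fitted these settings gave 2972 to 4365, 2708 to 3435 and 4507 to 6049 in the same order. The offset of 16 left 11 calls in KO M1 against KO M0 but split them 9 higher and 2 lower, where 6 and 5 were called without it. Over the whole array it gave 1348 higher and 1861 lower, where 1241 and 1945 were called without it. The calls these settings changed were of 2 probe sets each of Inpp5d and Rcbtb2 and 1 each of Tspan14, Gpr65, Tcf7l2 and Enpp1, and the cause was not tested. Ratios of arithmetic means kept the direction of each call. Of the probe sets with a call, 1440339_at of Enpp1 was below the median on every array.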
